A study of Homo sapiens with 9 samples.

Results

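The YAP-TEAD and matricellular target genes were followed across A375R melanoma cells treated with a solvent control or with 1 of 2 compounds. The genes were matched to the table by name and are CCN1, CCN2, ANKRD1, AMOTL2, AJUBA, LATS2, ADAMTS1, THBS1 and F3. They were chosen with earlier results of these data known. Each name matched 1 gene of the deposited table, which made 9 genes out of 62710. A375R is a human melanoma line that grows in the presence of PLX4032, an inhibitor of mutant BRAF. Cells were given DMSO alone, VHL-r at 10 µM or R4VPL3-1 at 10 µM and were collected after 2 h, with 3 libraries in each of the 3 groups, and poly(A) RNA was sequenced to find the genes that differed between treatments. VHL-r is the moiety that binds the ubiquitin ligase VHL, and R4VPL3-1 is the PROTAC-like molecule in which that moiety is joined by a linker to a ligand of the ubiquitin ligase RNF4. The DMSO libraries carry a wild-type label that names neither a dose nor a time, and the table's heading for DMSO replicate 1 lacks the 2 h mark that the other DMSO headings carry.

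In the Hippo pathway, the MST kinases activate the LATS kinases, which phosphorylate the coactivators YAP and TAZ and keep them out of the nucleus. Unphosphorylated YAP and TAZ enter the nucleus, bind TEAD transcription factors and raise genes for cell growth, adhesion and the matrix, in response to cell shape, stiffness and serum factors. CCN1, CCN2 and THBS1 encode matricellular proteins, which are secreted into the matrix and signal through integrins and other receptors without being part of its scaffold. AMOTL2, AJUBA and LATS2 encode proteins of the Hippo pathway itself, and their genes are also targets of YAP.

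The recovered depth was 26435568 to 32085626 reads per library, and every member passed the filter of a mean normalized count of at least 10 over the 9 libraries, as did 15230 genes in all. The melanoma label was compared with marker genes. SOX10 was read at 7900 to 17935 normalized counts, MITF at 893 to 1994 and DCT at 914 to 1782, whereas the pigment gene MLANA was listed at 0 in all 9 libraries and TYR did not exceed 2.14. The summed level of the 11 melanoma state genes was 34878 to 36836 in DMSO, 25520 to 28169 in VHL-r and 23392 to 25270 in R4VPL3-1. Of the blood cell markers, PTPRC did not exceed 11.8 normalized counts and HBB did not exceed 1.99. The 4 endothelial markers summed to 632 to 699 in DMSO, 421 to 461 in VHL-r and 421 to 511 in R4VPL3-1, nearly all of it KDR, while PECAM1 did not exceed 10.1. The sums of the 5 fibroblast markers and of the 4 keratinocyte markers were 1515 to 3232 and 1915 to 2305 over all libraries. Most of the keratinocyte sum was KRT10, at 1673 to 1942, with KRT14 at 224 to 365 and KRT1 at no more than 1.00. Most of the fibroblast sum was COL1A1, at 729 to 1635, and COL3A1, at 565 to 1274. The part of the melanoma and endothelial sums in the results was not tested.

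Most of the 9 genes were lower after either compound. A gene was called when its adjusted p was at most 0.05 in limma, with Benjamini-Hochberg adjustment over all 15230 genes. Against DMSO, 6 of the 9 genes fell in VHL-r, where 9.51% of all genes tested were called lower, and 7 fell in R4VPL3-1, where 11.8% were. The VHL-r libraries lay wholly below the DMSO libraries for 7 members and 17.2% of all genes, and the R4VPL3-1 libraries for 8 members and 18.9% of all genes. Between the compounds, 3 of the 9 were lower in R4VPL3-1 than in VHL-r, against 0.729% of all genes. The median log2 fold change of the 9 genes was -0.71 in VHL-r against DMSO and -1.06 in R4VPL3-1 against DMSO, and the median over all genes tested was -0.0045 and -0.0063. A log2 fold change of -1 or below was found for 3 members in VHL-r and 6 in R4VPL3-1, and for 1.04% and 1.35% of all genes. Both comparisons used the same 3 DMSO libraries, so their values are not independent. In bulk RNA, fewer cells that express a gene and less of its RNA per cell cannot be told apart.

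**Figure D1:**
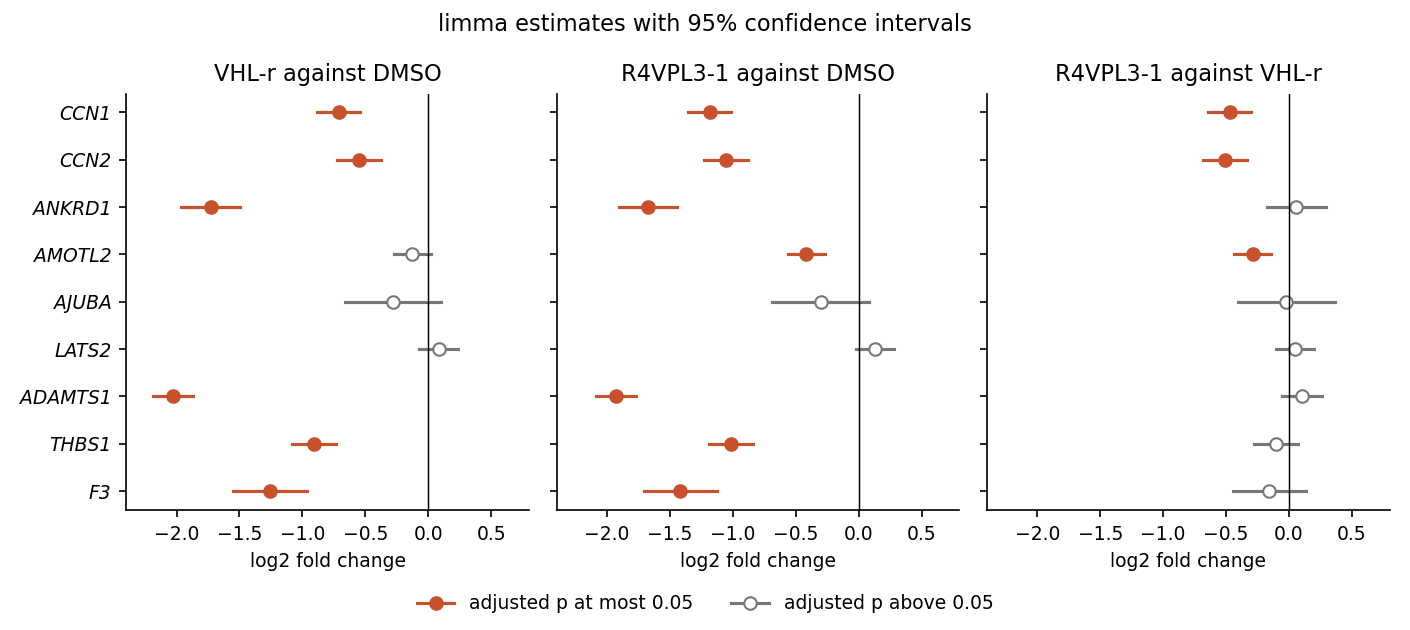
log2 fold changes of the 9 genes (points) with 95% confidence intervals (lines) from limma on log2(normalized count + 1), in each of 3 comparisons. Filled points have an adjusted p of at most 0.05, which held for 6 genes in VHL-r against DMSO, 7 in R4VPL3-1 against DMSO and 3 in R4VPL3-1 against VHL-r.

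Sequence upstream of these genes was read from RefSeq windows on GRCh38.p14, each with 250 bases before and 50 after an annotated start. Windows were held for 7 of the 9 genes, 9 windows in all because AMOTL2 and AJUBA each have 2 starts, and CCN1 and ADAMTS1 were not matched. The motifs were searched on both strands. The TEAD core, GGAATG, was found in 6 of the 9 windows and for 6 of the 7 genes, and in 14.0% of the 35114 promoters of the table. The genes were picked as YAP-TEAD and matricellular targets, so the choice itself may raise their share. LATS2, at position 9, and AJUBA, at -59, held a core too and were not called against DMSO. The AP-1 motif, TGANTCA, was found for 2 genes, F3 and ANKRD1, and in 7.7% of promoters. The SMAD element, CAGAC, is short and was found in 7 windows and in 45.3% of promoters. The CArG box, which serum response factor binds, was in no window and in 1.3% of promoters. The stretches below are shown because they hold the TEAD core or AP-1 matches that lie outside the transcribed part of 4 genes that fell after both compounds. They run 5′ to 3′ on the strand of the gene, and capitals mark the TEAD core in CCN2, ANKRD1 and THBS1 and the AP-1 motif in F3. The stretch of CCN2 is chr6:131951442-131951561 (minus strand), that of ANKRD1 chr10:90921190-90921327 (minus strand), that of THBS1 chr15:39581013-39581058 (plus strand) and that of F3 chr1:94541943-94542002 (minus strand).
CCN2: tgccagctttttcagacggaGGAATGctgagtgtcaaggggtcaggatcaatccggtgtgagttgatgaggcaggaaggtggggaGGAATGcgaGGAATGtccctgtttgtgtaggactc
ANKRD1: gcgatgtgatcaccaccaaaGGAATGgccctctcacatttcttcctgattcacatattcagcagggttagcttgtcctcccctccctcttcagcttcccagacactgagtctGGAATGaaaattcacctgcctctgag
THBS1: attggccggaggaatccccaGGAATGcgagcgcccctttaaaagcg
F3: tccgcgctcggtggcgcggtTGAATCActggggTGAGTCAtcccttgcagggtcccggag
The 3 TEAD cores of CCN2 began at positions -169, -104 and -95 from the start, those of ANKRD1 at -220 and -128, and that of THBS1 at -46. The AP-1 matches of F3 began at -223 and -210, and the ANKRD1 stretch also held 1 AP-1 match at -195. The window of F3 held no TEAD core. A match describes these letters only, and binding was not measured.

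CCN1 and CCN2 are the matricellular genes most widely read as an output of YAP. CCN1 (ENSG00000142871, chr1:85580761-85584589, plus strand, 5 exons in its canonical transcript) encodes a secreted integrin ligand that acts on adhesion and migration. Its normalized counts were 13026, 9991 and 9510 in DMSO replicates 1 to 3, 6617, 6910 and 6190 in VHL-r, and 4564, 5175 and 4490 in R4VPL3-1. The 3 groups did not overlap, with DMSO highest and R4VPL3-1 lowest, and DMSO replicate 1 stood above the other DMSO libraries. The group means were 10842 ± 1906 (SD, n = 3), 6572 ± 362 and 4743 ± 376, so that VHL-r was at 60.6% and R4VPL3-1 at 43.7% of DMSO. CCN1 fell by 0.71 on the log2 scale in VHL-r (95% interval -0.88 to -0.54, adjusted p = 1.85e-06 in limma) and fell by 1.18 in R4VPL3-1 (-1.35 to -1.01, adjusted p = 6.99e-10 in limma). Without DMSO replicate 1 both differences were smaller, -0.57 and -1.04, and remained called.

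CCN2 (ENSG00000118523, chr6:131948176-131951372, minus strand, 5 exons), known as connective tissue growth factor, promotes matrix deposition. Its normalized counts were 9734, 7599 and 7190 in DMSO, 5464, 5737 and 5410 in VHL-r, and 3656, 4427 and 3650 in R4VPL3-1. The order of the groups was that of CCN1, again with no overlap and with DMSO replicate 1 highest. VHL-r was at 67.7% and R4VPL3-1 at 47.8% of the DMSO mean, which was 8174 ± 1366 (SD, n = 3). In limma the log2 fold change was -0.55 in VHL-r (95% interval -0.72 to -0.38, adjusted p = 5.65e-05) and -1.06 in R4VPL3-1 (-1.23 to -0.88, adjusted p = 5.31e-09). Without DMSO replicate 1 these were -0.42 and -0.92.

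THBS1 (ENSG00000137801, chr15:39581079-39599466, plus strand, 22 exons) encodes thrombospondin 1, a large matricellular glycoprotein that inhibits angiogenesis and activates latent TGF-beta. By its normalized count it was the second of all genes in DMSO, where it held 0.393% to 0.546% of the total. The counts were 159051, 131149 and 110718 in DMSO, 72137, 73776 and 65545 in VHL-r, and 63318, 70098 and 63524 in R4VPL3-1. Both treated groups lay below every DMSO library, and they overlapped each other. THBS1 fell to 52.7% of the DMSO mean in VHL-r, or -0.91 as a log2 fold change (95% interval -1.08 to -0.73, adjusted p = 8.56e-08 in limma). In R4VPL3-1 it fell to 49.1%, or -1.01 (-1.19 to -0.84, adjusted p = 1.07e-08 in limma).

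ADAMTS1 (ENSG00000154734, chr21:26835755-26845409, minus strand, 9 exons) encodes a secreted metalloproteinase that cleaves proteoglycans of the matrix. It was read at 1739, 1962 and 1823 normalized counts in DMSO, at 410, 437 and 508 in VHL-r, and at 479.0, 489 and 481 in R4VPL3-1. Every treated library was far below every DMSO library, and the R4VPL3-1 values lay within the range of VHL-r. ADAMTS1 changed more than any other member, to 24.5% of the DMSO mean in VHL-r and 26.2% in R4VPL3-1. Its log2 fold change was -2.03 in VHL-r (95% interval -2.19 to -1.87, adjusted p = 2.39e-13 in limma) and -1.93 in R4VPL3-1 (-2.09 to -1.77, adjusted p = 1.18e-13 in limma). It ranked 10th and 21st from the lowest fold change of the 15230 genes.

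ANKRD1 (ENSG00000148677, chr10:90912096-90921087, minus strand, 9 exons) encodes an ankyrin repeat protein of the nucleus and the sarcomere and is a standard readout of YAP-TEAD activity. Its counts were 1510, 1733 and 1151 in DMSO, 487, 405 and 416 in VHL-r, and 452, 493 and 416 in R4VPL3-1. The treated groups overlapped each other almost fully and stayed below the lowest DMSO library. ANKRD1 stood at 29.8% of the DMSO mean in VHL-r and 31.0% in R4VPL3-1. The log2 fold changes were -1.73 (95% interval -1.96 to -1.50, adjusted p = 4.36e-10 in limma) and -1.67 (-1.90 to -1.44, adjusted p = 3.52e-10 in limma). ANKRD1 ranked 20th and 36th from the lowest of all genes.

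F3 (ENSG00000117525, chr1:94529173-94541759, minus strand, 6 exons) encodes tissue factor, the membrane receptor that starts coagulation, and belongs with CCN1, CCN2, ANKRD1, AMOTL2 and LATS2 to a known signature of 22 YAP targets. It was a low gene, with 324, 267 and 277 normalized counts in DMSO, 100.1, 150.2 and 115 in VHL-r, and 104, 109 and 109 in R4VPL3-1. VHL-r replicate 2 was the highest treated library and still lay below every DMSO library. F3 fell by 1.26 on the log2 scale in VHL-r (95% interval -1.55 to -0.97, adjusted p = 1.06e-06 in limma) and fell by 1.42 in R4VPL3-1 (-1.71 to -1.12, adjusted p = 1.32e-07 in limma).

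**Figure D2:**
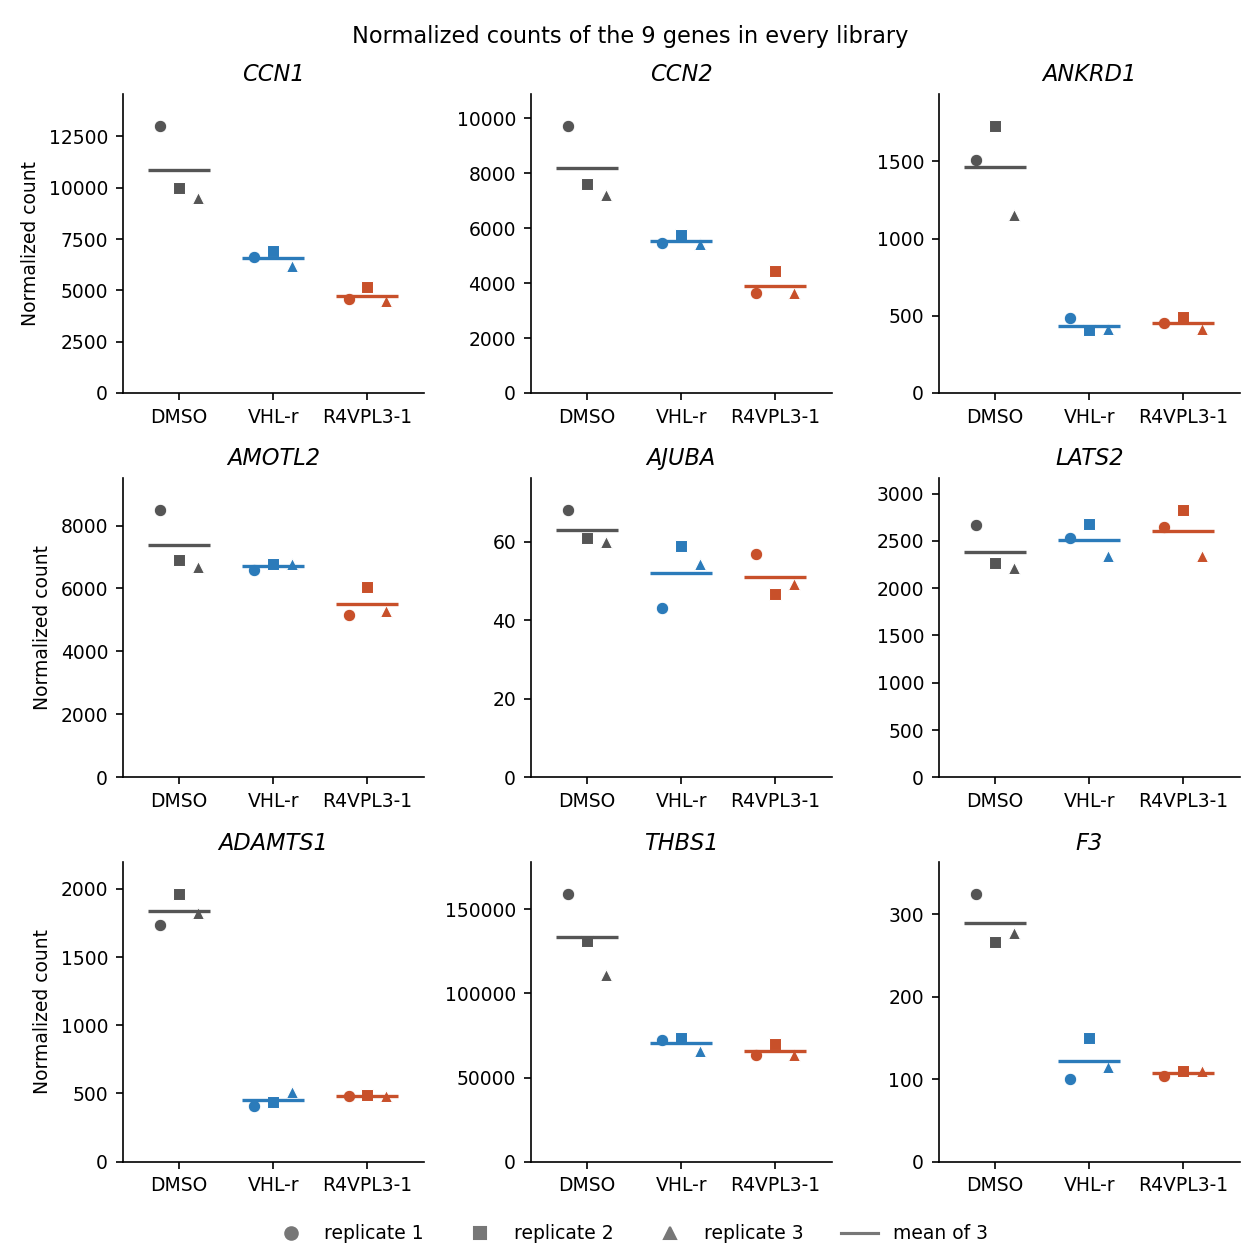
Normalized counts of the 9 genes in every library (symbols, by replicate number), with the mean of 3 libraries as a line, on a linear axis from 0 for each gene. CCN1 and CCN2 step down from DMSO to VHL-r and again to R4VPL3-1, ADAMTS1, ANKRD1, THBS1 and F3 are low in both treated groups, and LATS2 overlaps in all 3 groups.

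The members that act inside the Hippo pathway had smaller log2 fold changes. AMOTL2 (ENSG00000114019, chr3:134355347-134375479, minus strand, 10 exons) encodes an angiomotin-like scaffold that binds YAP at junctions. Its counts were 8498, 6911 and 6695 in DMSO, 6583, 6769 and 6786 in VHL-r, and 5165, 6055 and 5299 in R4VPL3-1. VHL-r overlapped DMSO, and R4VPL3-1 lay below both. AMOTL2 fell to 74.7% of the DMSO mean in R4VPL3-1, a log2 fold change of -0.42 (95% interval -0.56 to -0.27, adjusted p = 0.000124 in limma). In VHL-r it was at 91.1%, with a log2 fold change of -0.13 (-0.27 to 0.02) that did not pass the test (adjusted p = 0.237 in limma) and was -0.02 without DMSO replicate 1. A share of 2.89% of its exon bases lies under another gene on the same strand, where reads would not have been counted.

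AJUBA (ENSG00000129474, chr14:22971177-22982551, minus strand, 8 exons) encodes a LIM protein that restrains the LATS kinases. It was the lowest member, with 68.1, 61.0 and 59.8 normalized counts in DMSO, 43.0, 58.8 and 54.3 in VHL-r, and 57.0, 46.8 and 49.2 in R4VPL3-1. Every treated library was below every DMSO library, by a margin of about 1 count in the case of VHL-r replicate 2. The log2 fold changes, -0.28 (95% interval -0.66 to 0.10) and -0.30 (-0.69 to 0.08), did not pass the test (adjusted p = 0.337 and 0.258 in limma). Without VHL-r replicate 1 the former was -0.15. These intervals are the widest of the 9 genes, at 43 to 75 reads per library.

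LATS2 (ENSG00000150457, chr13:20973036-21061586, minus strand, 8 exons) encodes a kinase that inactivates YAP and is itself a YAP target. Its counts were 2670, 2266 and 2211 in DMSO, 2532, 2678 and 2336 in VHL-r, and 2651, 2829 and 2345 in R4VPL3-1, and the 3 groups overlapped. It was the member with values above DMSO, at 105.6% in VHL-r and 109.5% in R4VPL3-1. The log2 fold changes of 0.08 (95% interval -0.07 to 0.23) and 0.13 (-0.02 to 0.28) did not pass the test (adjusted p = 0.505 and 0.209 in limma). In R4VPL3-1 the call depended on single libraries: LATS2 was called higher without DMSO replicate 1 (log2 fold change 0.22, adjusted p = 0.0332 in limma) and without R4VPL3-1 replicate 3 (0.21, adjusted p = 0.0419 in limma).

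R4VPL3-1 and VHL-r, which share the VHL-binding moiety and differ by the linker and the RNF4 ligand, were compared at the same dose and time. CCN1, CCN2 and AMOTL2 were lower in R4VPL3-1, and in each the groups did not overlap, as was the case in that direction for 7.11% of all genes. CCN1 differed by -0.47 on the log2 scale (95% interval -0.64 to -0.30, adjusted p = 0.00154 in limma), which is 1.39-fold. CCN2 differed by -0.51 (-0.68 to -0.33, adjusted p = 0.000875 in limma), or 1.42-fold. AMOTL2 differed by -0.29 (-0.43 to -0.14, adjusted p = 0.0309 in limma), or 1.22-fold. These calls were less firm than those against DMSO. CCN1 and CCN2 each kept theirs under 19 of 20 other ways of processing, and AMOTL2 under 14. With limma's robust option, which relaxes the shared variance for genes of unusual spread, none of the 3 passed, with adjusted p = 0.177 for CCN1, 0.150 for CCN2 and 0.180 for AMOTL2. AMOTL2 also lost its call when any single VHL-r library was left out, and when replicate 1 or 3 of R4VPL3-1 was (adjusted p from 0.0626 to 0.193 in limma).

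The other 6 members did not pass the test between the compounds, which does not show that the compounds act alike on them. The intervals bound the difference of R4VPL3-1 from VHL-r on the log2 scale at -0.06 to 0.26 for ADAMTS1, -0.28 to 0.07 for THBS1, -0.17 to 0.29 for ANKRD1 and -0.10 to 0.20 for LATS2. They were wider for the low genes, at -0.45 to 0.13 for F3 and -0.41 to 0.36 for AJUBA. A difference as low as that of CCN1 lies outside all of these intervals, whereas for F3 and AJUBA one as low as that of AMOTL2 lies inside.

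Divided by the length of the canonical transcript, levels can be compared roughly between genes. The counts cover all exons of a gene, so the result depends on the length used. CCN1 has 3698 exon bases against 2278 in its canonical transcript, and CCN2 has 2338 in both. The order of these genes changes with that choice, and the SDs hold only the spread between libraries. In DMSO the order, in normalized counts per kb, was THBS1 at 17157 ± 3115 (SD, n = 3), CCN1 at 4760 ± 837, CCN2 at 3496 ± 584, AMOTL2 at 1513 ± 202, ANKRD1 at 818 ± 164, LATS2 at 430 ± 45.2, ADAMTS1 at 355 ± 21.7, F3 at 126 ± 13.4 and AJUBA at 15.1 ± 1.07. Of these neighbours, CCN1 and CCN2 overlapped within 1 SD and the others did not. In the treated groups LATS2 stood above ANKRD1, at 454 ± 30.9 against 244 ± 24.9 per kb in VHL-r and 470.2 ± 44.1 against 254 ± 21.5 in R4VPL3-1. ADAMTS1 went from 355 to 87.2 ± 9.74 and 93.2 ± 1.09 per kb.

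The spread within DMSO was not shared evenly. DMSO replicate 1 was the highest DMSO library for 7 of the 9 members, against 37.3% of all genes tested. Its standing beside the missing 2 h mark in its heading was not tested. The 13 calls against DMSO held under each of 20 other ways of processing, among them leaving this library out.

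The regulators of the pathway had smaller log2 fold changes than most of the 9 genes. From a list of 23 Hippo kinases, adaptors and YAP-TEAD factors, 7 fell in VHL-r and 16 did not pass, and their median was -0.05 on the log2 scale. In R4VPL3-1 9 fell and 14 did not pass, with a median of -0.10. Over all genes tested, 9.51% fell in VHL-r and 11.8% in R4VPL3-1, and 10.3% and 13.1% rose. SAV1, the adaptor of the MST kinases, fell, with log2 fold changes of -0.34 in VHL-r and -0.50 in R4VPL3-1 (adjusted p = 0.000556 and 5.83e-06 in limma). NF2, which encodes the upstream activator merlin, fell as well (-0.36 and -0.37), as did FRMD6, a FERM domain relative of merlin (-0.34 and -0.45). AMOTL1, the angiomotin relative of AMOTL2, fell (-0.27 and -0.46). It was the list member called between the compounds (-0.18, adjusted p = 0.0465 in limma), where 0.729% of all genes tested were called lower. The coactivators and their DNA-binding partners were looked up after their values were seen. YAP1 had log2 fold changes of -0.14 and -0.19 and WWTR1, which encodes TAZ, of -0.20 and -0.29, all called (adjusted p from 3.23e-05 to 0.0209 in limma). TEAD1 was read at 4190 ± 381 normalized counts (SD, n = 3) in DMSO, 4307 ± 450.5 in VHL-r and 4350 ± 278 in R4VPL3-1 and did not pass (adjusted p = 0.772 and 0.617 in limma).

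Of the YAP signature, 16 genes are not among the 9. PTPN14, also in the Hippo list, and AXL, also in the melanoma state list, are among these 16. In VHL-r 7 fell and 9 did not pass, and in R4VPL3-1 8 fell, 1 rose and 7 did not pass. The median was -0.17 on the log2 scale in either comparison. Of all genes tested, 9.51% fell in VHL-r, and 11.8% fell and 13.1% rose in R4VPL3-1. Between the compounds, where 1.14% of all genes tested were called higher and 0.729% lower, 1 of the 16 rose and 1 fell. FJX1, which encodes a secreted relative of the Four-jointed kinase, was read at 1370 ± 132 normalized counts (SD, n = 3) in DMSO, 655 ± 10.6 in VHL-r and 521 ± 63.4 in R4VPL3-1. Its log2 fold changes were -1.06 and -1.40, and it was lower in R4VPL3-1 than in VHL-r (-0.34, adjusted p = 0.0328 in limma). TGFB2, a TGF-beta ligand, fell (-0.76 and -0.69), and so did FOXF2, a forkhead factor (-0.48 and -0.58). GADD45A, a stress-induced gene of growth arrest, went the other way in R4VPL3-1, with a log2 fold change of 0.61 against DMSO and 0.43 against VHL-r (adjusted p = 1.39e-06 and 0.00106 in limma). It was 0.19 in VHL-r (adjusted p = 0.0717 in limma).

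Several of the 9 genes are also induced by TGF-beta and SMAD or by serum response factor and MRTF, so both sets were read. Of 13 tested early TGF-beta targets, 2 rose and 1 fell in VHL-r, and 2 rose and 5 fell in R4VPL3-1. Of all genes tested, 10.3% rose and 9.51% fell in VHL-r, and 13.1% rose and 11.8% fell in R4VPL3-1. Between the compounds, 3 of the 13 were lower in R4VPL3-1, against 0.729% of all genes. TGIF1, a SMAD corepressor, was read at 868 ± 40.8 normalized counts (SD, n = 3) in DMSO, 768 ± 69.8 in VHL-r and 409.9 ± 18.0 in R4VPL3-1. Its log2 fold change between the compounds was -0.90 (adjusted p = 1.06e-07 in limma), and that of SMAD7, the inhibitory SMAD, was -0.57 (adjusted p = 0.00188 in limma). SKI, another SMAD corepressor, rose (0.66 in VHL-r and 0.58 in R4VPL3-1), and PMEPA1, which dampens SMAD signalling, fell (-0.31 and -0.55). Of 18 tested cytoskeletal targets of serum response factor, 7 fell and 2 rose in VHL-r, and 8 fell and 3 rose in R4VPL3-1. The shares of all genes to set beside these counts are the same as for the TGF-beta targets. FHL2, a LIM cofactor, fell, with log2 fold changes of -0.84 and -0.94 (adjusted p = 8.11e-08 and 8.50e-09 in limma) and TGFB1I1, a focal adhesion protein, fell too (-0.49 and -0.40). FILIP1L fell (-1.27 and -1.37) from a low DMSO level of 26.2 ± 3.1 normalized counts, and MYH9, a non-muscle myosin heavy chain, rose by 0.36 in R4VPL3-1 (adjusted p = 0.00125 in limma). ACTB, beta-actin, also looked up after its values were seen, was 0.01 and -0.16 and did not pass (adjusted p = 0.926 and 0.0518 in limma).

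Of 21 relatives of the members by family, 16 passed the filter on low values. AMOT, AMOTL1 and LATS1 are among them and were also counted in the Hippo list. In VHL-r 1 relative rose, 1 fell, which was AMOTL1, and 14 did not pass. In R4VPL3-1 1 rose, 2 fell, AMOTL1 among them, and 13 did not pass. These shares lie near those of all genes tested, of which 10.3% rose and 9.51% fell in VHL-r and 13.1% rose and 11.8% fell in R4VPL3-1. CCN3, the tested CCN relative with the most reads, had a log2 fold change of -0.15 in VHL-r (adjusted p = 0.235 in limma) and fell by 0.32 in R4VPL3-1 (adjusted p = 0.00719 in limma). LATS1, the paralog of LATS2, looked up in the same way, was at -0.01 and 0.05 and did not pass (adjusted p = 0.913 and 0.599 in limma). LIMD1, a LIM relative of AJUBA, rose by 0.20 in both groups (adjusted p = 0.0340 and 0.0265 in limma).

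The melanoma state list held 9 tested genes. Of these, 3 fell and 6 did not pass in VHL-r, and 4 fell, 1 rose and 4 did not pass in R4VPL3-1. The shares of all genes tested were 9.51% lower in VHL-r, and 11.8% lower and 13.1% higher in R4VPL3-1. SOX10, a lineage factor of melanocytes and neural crest, was read at 17547 ± 482 normalized counts (SD, n = 3) in DMSO, 10200 ± 1043 in VHL-r and 8405 ± 447 in R4VPL3-1. Its log2 fold changes were -0.79 and -1.06, with -0.28 between the compounds (adjusted p = 0.00951 in limma). MITF, the master regulator of pigment cells, fell (-0.71 and -0.77). In R4VPL3-1 NGFR, a neural crest receptor, fell and EGFR, a growth factor receptor, rose (log2 fold changes of -0.31 and 0.31, adjusted p = 0.00447 and 0.0145 in limma).

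Over the 9 libraries, the other tested gene whose log2 values followed CCN1 most closely was CCN2, with a Pearson r of 0.993, and the next were KLF13 and KIAA0040 with 0.990 and 0.989. For CCN2 these were CCN1, URB2 and ARHGEF2. ANKRD1 lay nearest to IGF2BP3 (r = 0.996), ADAMTS1 to DUSP10 (r = 0.997), THBS1 to FHL2 (r = 0.996) and F3 to UBL4A (r = 0.985). AMOTL2 lay nearest to RAB8A (r = 0.981), and the genes nearest to AJUBA and LATS2, COA4 and THOP1, had lower values of 0.971 and 0.949. These values describe 9 points that share 3 treatments and 9 library depths.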

How the data were processed

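RNA was measured in 9 libraries of A375R cells, 3 per treatment, which the study's methods describe as independent biological repeats. The authors aligned single reads to GRCh38 with STAR, assigned them to genes on the strand of the kit (reverse mode of htseq-count) and divided the counts by DESeq2 1.36.0 size factors; the deposited signal is this normalized count. Groups were taken from sample titles, and the titles of the DMSO group say wild type. Every value above 0 came out as a whole number of reads, within 0.1 read, once multiplied by its library's size factor (0.934 to 1.10). Because the values are normalized, log2(value + 1) was tested for the 15230 genes that averaged 10 or more, using limma 3.58.1 in R 4.3.3, with 1 variance estimate over the 3 groups and an empirical Bayes trend, and genes were called at 0.05 after Benjamini-Hochberg adjustment. Alternatives were other pseudocounts (0.1 and 5), filters (none and 50), rescalings (TMM and upper quartile), tests (the robust option of limma, and on recovered reads DESeq2 1.42.0 or edgeR 4.0.16), a replicate block, fits of the 6 libraries compared, and each library left out. The limma fit and the recovery of reads were tested on simulated data. The 9 genes and the lists were chosen with earlier results of these data known. Named list genes are at most 4 per list, those called in any comparison with the largest log2 fold changes, and for each member the nearest genes are the 3 with the highest Pearson r. Coordinates are those of GENCODE on GRCh38, equal to the deposited ones for all 9 genes.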

Additional observations from a re-analysis of the deposited data

How the results depend on the processing

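All 13 calls of members against DMSO held under 20 alternatives, among them edgeR and DESeq2 on recovered reads, both rescalings and each library left out. With the robust option the number of members lower in R4VPL3-1 than in VHL-r went from 3 to 0, at 281 calls over all genes against 285, and the cause was not tested. Without DMSO replicate 1, and without R4VPL3-1 replicate 3, the number of members higher in R4VPL3-1 than in DMSO was 1 (LATS2) instead of 0, a range of 0 to 1 over the 9 libraries.

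Between the compounds, 8 log2 fold changes of uncalled members turned sign when a library was left out. ANKRD1 was then between -0.0031 (without R4VPL3-1 replicate 2) and 0.1409, AJUBA between -0.1505 and 0.0707, LATS2 between -0.0105 and 0.1248, and F3 between -0.2873 and 0.0034. None of these passed the test.

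At an adjusted p of at most 0.01, 1885 genes were called in VHL-r against DMSO (3016 at 0.05) and 2494 in R4VPL3-1 against DMSO (3792 at 0.05). Without R4VPL3-1 replicate 1, 182 genes were called between the compounds against 285.

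Libraries with the same replicate number resembled each other weakly: the deviations of the 9 same-numbered pairs correlated at -0.0056 to 0.121, with 2 above 0.1. The other pairs lay at -0.148 to 0.0982, and 6 of 9 libraries correlated best with their own number. With the replicate number as a block, 6, 7 and 3 members were called lower in the 3 comparisons, as without it, and 389 genes were called between the compounds.

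AJUBA was the shallowest member, at 43 to 75 reads per library, and had the widest intervals; the part of depth in them was not tested.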
